A study of Mus musculus with 19 samples.

Results

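ZT20, 8 h into the dark phase, was compared with ZT8, 8 h into the light phase, in ribosome-bound mRNA of spinal cord cholinergic neurons. The members were the 3 libraries that the table names for ZT20 and the 3 that it names for ZT8, 6 of the 19 libraries of a time course with a sample every 4 h. Both groups were male C57BL/6J mice, 10 weeks old and kept in 12 h of light and 12 h of dark, and they differed only in Zeitgeber time (ZT, hours after lights on). All carried ChAT-Cre and 1 RiboTag allele, which puts a hemagglutinin tag on a ribosomal protein wherever Cre recombinase is made, here under the choline acetyltransferase promoter. The tag was precipitated from 1 spinal cord per library, so motor neurons, preganglionic neurons and cholinergic interneurons of the whole cord were pooled. The comparison asks which transcripts differed on ribosomes between 2 times of day that lie 12 h apart.

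The circadian clock of a mammalian cell is a loop in which CLOCK and BMAL1 drive the Per and Cry genes, whose proteins then repress CLOCK and BMAL1. A second loop of REV-ERB and ROR receptors controls Bmal1, and outputs such as Dbp, Tef and Nfil3 pass the rhythm on to other genes. Motor neurons maintain very long axons and therefore depend on protein synthesis, protein quality control, energy supply and axonal transport, and amyotrophic lateral sclerosis (ALS) is the disease in which they degenerate.

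The ZT20 libraries held 6302150, 19221321 and 14554663 expected counts (replicates 1, 2 and 3, as in all values by library) and the ZT8 libraries 14677638, 19064826 and 16360462. ZT8 replicate 1 stood apart from the other ZT8 libraries. Over 9183 genes with a mean of at least 3 on the log2 CPM scale (CPM, a count relative to the TMM-scaled total of its library), its median absolute difference was 0.28 and 0.21 from ZT8 replicates 2 and 3 but 0.19, 0.15 and 0.15 from the ZT20 libraries. On the first principal component of the 6 libraries (66.4% of the variance) it scored -5.49, among the ZT20 libraries (-25.1, -18.3 and -4.41) and away from ZT8 replicates 2 and 3 (34.1 and 19.2). Counts over all genes are therefore given with and without this library, and list medians also without it where it moved them most.

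Among 15572 genes tested, 0 were called by the edgeR quasi-likelihood test at an adjusted p under 0.05 (0% of genes), the lowest adjusted p being 0.0557. With an unadjusted p under 0.05, ZT20 was the higher time for 1851 genes (11.9% of genes tested) and ZT8 for 1623 (10.4%). DESeq2 called 650 genes as higher at ZT20 (4.17%) and 464 as higher at ZT8 (2.98%), and limma-voom called 109 in all. Without ZT8 replicate 1, edgeR called 1402 genes with ZT20 as the higher time (8.7%) and 918 with ZT8 (5.7%). The calls thus depended on the test and on that library, and single genes below are given as values and not as changes.

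Transcripts higher at ZT20 with the lowest p were Bud23, Grpel1, Sdf2l1, Man2b2, Ndufb2, Mettl7a1, Laptm4b, Serinc1, Rheb and Clu, among genes with a mean log2 CPM of at least 3. Sdf2l1, which encodes a cofactor of the chaperones in the endoplasmic reticulum (ER), stood at 6.81, 4.69 and 4.79 CPM at ZT8 and at 15.6, 18.2 and 10.2 CPM at ZT20. Grpel1, a nucleotide exchange factor for the mitochondrial Hsp70, stood at 27.7, 11.2 and 15.1 CPM against 50.6, 39.8 and 36.3 CPM. Man2b2, a mannosidase of the lysosome, stood at 10.3, 4.91 and 4.55 CPM against 26.1, 20.4 and 13.1 CPM. In each of these genes the 3 ZT20 libraries lay above the 3 ZT8 libraries, and ZT8 replicate 1 was the ZT8 library nearest to ZT20. The log2 fold changes from ZT8 to ZT20 were 1.43 ± 0.27 (SE, n = 3 per time in this and all later values) for Sdf2l1, 1.23 ± 0.23 for Grpel1 and 1.59 ± 0.31 for Man2b2.

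The rest of this set included abundant transcripts. Clu encodes clusterin, a secreted chaperone, and had 646, 395 and 467 CPM at ZT8 and 937, 815 and 777 CPM at ZT20. Laptm4b encodes a lysosomal membrane protein and had 187, 103 and 123 CPM against 290, 257 and 216 CPM. Rheb, the small GTPase that activates mTORC1 at the lysosome, had 85.9, 71.6 and 72.9 CPM against 125, 102 and 111 CPM, a log2 fold change of 0.55 ± 0.11 and the smallest of the 10. Bud23, which modifies 18S ribosomal RNA, differed by 1.06 ± 0.20, Mettl7a1 by 1.25 ± 0.25 and Serinc1 by 0.91 ± 0.18 on the log2 scale, and Ndufb2, a subunit of complex I, by 0.77 ± 0.15. All 10 genes had non-overlapping groups (10.5% of all genes in this direction), which in part follows from their choice by p. Their edgeR adjusted p lay between 0.0557 and 0.0588, and 10 of the 10 were called without ZT8 replicate 1 and 10 by DESeq2. These counts too follow in part from the choice, as ZT8 replicate 1 was the ZT8 library nearest to ZT20 in all 10.

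Of the 10 transcripts higher at ZT8 with the lowest p, 9 are described here, namely Ccdc85c, Taf15, Cdc25a, Cbx3-ps6, Tnrc6c, Bbs5, Rian, Cpeb3 and Gal. Of these 9, 3 encode proteins that act on RNA and 1, Rian, is a non-coding RNA. Taf15 encodes an RNA-binding protein linked to ALS and had 73.6, 113 and 92.8 CPM at ZT8 and 36.0, 51.0 and 61.7 CPM at ZT20. Its groups did not overlap, and the log2 fold change was -0.90 ± 0.18. Tnrc6c, a scaffold of miRNA silencing, and Cpeb3, a regulator of translation at synapses, differed by -0.74 ± 0.15 and -0.54 ± 0.11, and Rian, from the imprinted Dlk1-Dio3 locus, by -0.49 ± 0.10.

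The remaining genes higher at ZT8 were more mixed. Gal encodes the neuropeptide galanin and had 21.0, 25.4 and 18.4 CPM at ZT8 and 7.86, 8.16 and 11.3 CPM at ZT20, a log2 fold change of -1.23 ± 0.26. Cdc25a, a phosphatase of the cell cycle, differed by -0.72 ± 0.15, Bbs5, part of the BBSome of cilia, by -0.94 ± 0.19, and Ccdc85c by -0.57 ± 0.10. Cbx3-ps6 is annotated as a pseudogene, whose reads the counting could have split with near-identical copies, and its value is uncertain. All 10 genes had non-overlapping groups (10.4% of all genes in this direction), which in part follows from their choice by p. Their adjusted p lay between 0.0557 and 0.0588 in edgeR. Taf15 lies at chr11:83473073-83506743 and Gal at chr19:3409915-3414544, by the RefSeq annotation of GRCm38.p6.

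**Figure D1:**
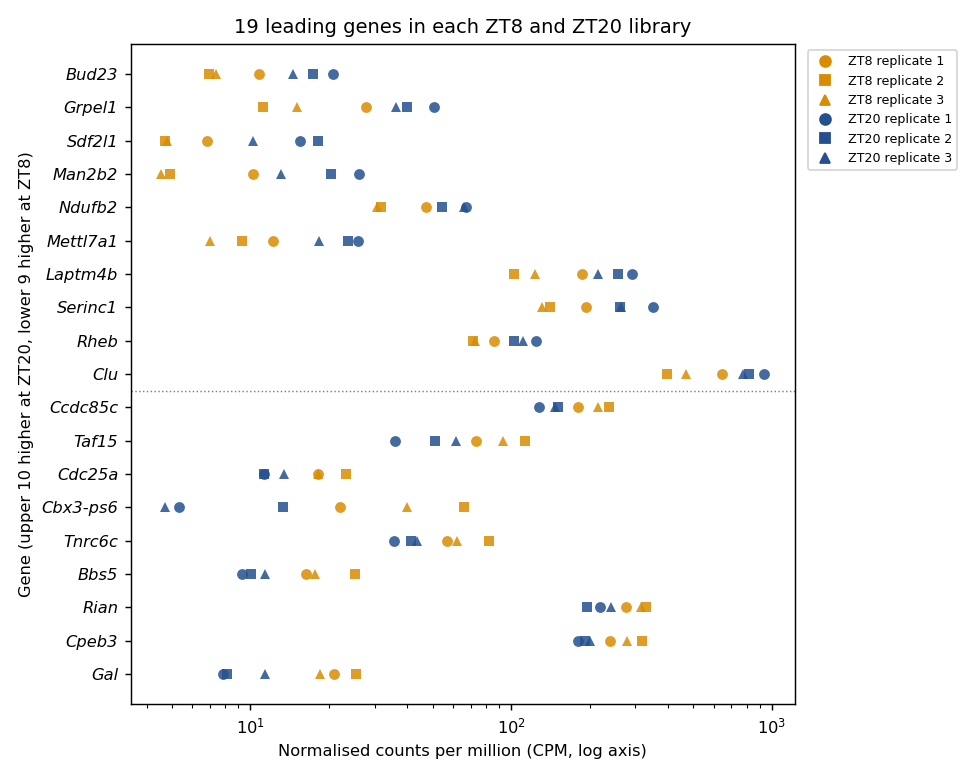
Normalised CPM (log axis) of the 10 genes with the lowest p higher at ZT20 (above the dotted line) and 9 of the 10 higher at ZT8 (below it), 1 point per library. In every gene the ZT8 (orange) and ZT20 (blue) points do not overlap, and in all 10 upper genes ZT8 replicate 1 (orange circle) is the ZT8 library nearest to ZT20.

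The 5 largest differences in each direction at an unadjusted p under 0.05 were less even between libraries. Higher at ZT20 were Dync1li1, a light intermediate chain of dynein (1.89 ± 0.60 on the log2 scale), Suclg1 of the tricarboxylic acid cycle (1.72 ± 0.43), Serpina3n, a secreted protease inhibitor (1.59 ± 0.47), Man2b2, and Slc22a17, a receptor for lipocalin 2 (1.51 ± 0.36). Dync1li1 had 19.1, 2.7 and 3.44 CPM at ZT8 and 44.5, 34.2 and 14.3 CPM at ZT20, so that ZT8 replicate 1 overlapped with ZT20. Higher at ZT8 were Pgam1-ps2 (-2.42 ± 0.63), Cbx3-ps6 (-2.40 ± 0.49), Gm14494 (-1.98 ± 0.71), Gp1bb, a platelet glycoprotein subunit (-1.44 ± 0.39), and Lars2, the mitochondrial leucyl-tRNA synthetase (-1.35 ± 0.41). Lars2 was uneven within some other times, with 821, 1179 and 2693 CPM at ZT4 and 2481, 936 and 623 CPM at ZT12. The source of this spread was not tested. Reads of near-identical copies limited this set. Pgam1-ps2 had 9.06, 248 and 78.3 CPM at ZT8 and its parent gene Pgam1 432, 119 and 307 CPM, whereas their sum was 441, 367 and 386 CPM at ZT8 and 572, 536 and 528 CPM at ZT20. Likewise Srp54a and Srp54b, copies of a signal recognition particle subunit chosen after their values were seen, differed by -1.27 ± 0.34 and 1.50 ± 0.34, whereas their sum lay between 115 and 124 CPM at ZT8 and between 137 and 157 CPM at ZT20.

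Unc13b had the lowest p of any gene, below the abundance limit of the ranking. It encodes Munc13-2, which primes synaptic vesicles for release, and lies at chr4:43046193-43264873. It had 3.00, 2.16 and 2.58 CPM at ZT8 and 4.72, 13.1 and 9.86 CPM at ZT20. All ZT20 libraries were higher, the shallowest of them least so, and the log2 fold change was 1.87 ± 0.31 (edgeR adjusted p, 0.0557).

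Clock genes differed little between ZT20 and ZT8. Of 27 clock genes, 11 were higher at ZT20 (50.7% of all genes were), 1 of them at an unadjusted p under 0.05, and 16 higher at ZT8, 5 of them so, and their median log2 fold change was -0.05 against 0.01 over all genes. Over all genes, 11.9% were higher at ZT20 and 10.4% at ZT8 at that threshold. No activator of the core loop and no Per or Cry gene was among the 6 clock genes at that threshold. Arntl, which encodes BMAL1, had 4.83, 5.29 and 6.64 CPM at ZT8 and 6.13, 8.99 and 6.55 CPM at ZT20 (0.39 ± 0.20), Per1 did not differ beyond its error (0.00 ± 0.16), and Per2 differed by 0.42 ± 0.31, Per3 by 0.28 ± 0.30, Cry1 by 0.33 ± 0.35 and Cry2 by -0.02 ± 0.09. Clock (-0.19 ± 0.15), Npas2 (-0.75 ± 0.54), Arntl2 (-0.00 ± 0.31) and Ciart (-0.19 ± 0.18) also had groups that overlapped.

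The clock genes at an unadjusted p under 0.05 lay in the second loop, in the outputs and among the kinases, and edgeR called none of them. Nfil3, the repressor that binds the same sites as the activators Dbp, Tef and Hlf, had 4.77, 3.07 and 3.13 CPM at ZT8 and 5.50, 8.68 and 7.23 CPM at ZT20, a log2 fold change of 0.99 ± 0.30. Tef had 124, 159 and 139 CPM against 112, 121 and 122 CPM (-0.25 ± 0.11), and Dbp 15.7, 16.0 and 15.2 CPM against 13.8, 10.3 and 13.5 CPM (-0.33 ± 0.17). The repressor Nfil3 was thus higher at ZT20 and both activators lower, without overlap of the groups, although Dbp did not reach an unadjusted p under 0.05, and Hlf (-0.35 ± 0.21) had overlapping groups. Rora, an activating receptor of Bmal1, had 35.2, 41.6 and 44.6 CPM against 31.6, 28.4 and 28.0 CPM (-0.47 ± 0.14), and Nr1d2, which encodes REV-ERBβ, 76.9, 91.5 and 75.0 CPM against 54.1, 58.1 and 66.4 CPM (-0.44 ± 0.15). Nr1d1, which encodes REV-ERBα, did not follow (-0.05 ± 0.19), nor did Rorb (0.05 ± 0.35). Csnk1d, a kinase that phosphorylates the Per proteins, had 356, 412 and 386 CPM against 279, 305 and 308 CPM (-0.37 ± 0.09), and Bhlhe41, a repressor of CLOCK and BMAL1, differed by -0.35 ± 0.14. The other kinases and ligases did not reach an unadjusted p under 0.05, nor did Bhlhe40 (-0.09 ± 0.11). Of the 27 genes, edgeR called 1 as higher at ZT20 and 3 as higher at ZT8 when ZT8 replicate 1 was left out (8.7% and 5.7% of all genes). DESeq2 called 1 and 3 with that library (4.17% and 2.98% of all genes).

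**Figure D2:**
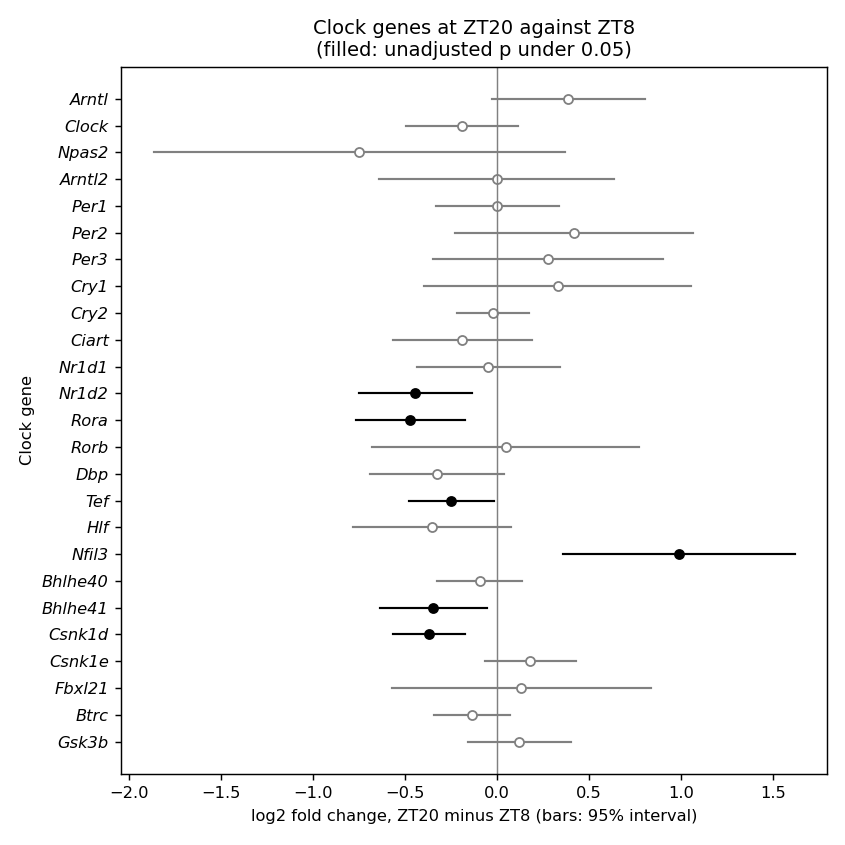
Log2 fold change from ZT8 to ZT20 of 25 of the 27 clock genes with its 95% interval (edgeR), in the order activators, repressors, REV-ERB and ROR receptors, outputs, and kinases and ligases. Filled points mark the 6 genes at an unadjusted p under 0.05, of which only Nfil3 is higher at ZT20.

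The promoters of 4 of these genes are shown because they hold the sites through which the loops act. The letters are from RefSeq on GRCm38.p6, 5′ to 3′ on the strand of the gene, and the capitals mark an E-box (CACGTG, bound by CLOCK and BMAL1), a D-box (TTATGTAA, bound by Dbp, Tef, Hlf and Nfil3) or a ROR element (TAGGTCA, bound by ROR and REV-ERB receptors), searched on both strands from 250 bases before to 50 bases after the start.
Nfil3, ROR element on the opposite strand, chr13:52981040-52981071, minus strand: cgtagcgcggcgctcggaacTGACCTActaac
Tef, E-box, chr15:81802526-81802571, plus strand: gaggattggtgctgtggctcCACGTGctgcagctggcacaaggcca
Bhlhe41, E-box, chr6:145865548-145865593, minus strand: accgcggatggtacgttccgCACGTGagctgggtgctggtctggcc
Per3, a pair of D-boxes, chr4:151044796-151044890, minus strand: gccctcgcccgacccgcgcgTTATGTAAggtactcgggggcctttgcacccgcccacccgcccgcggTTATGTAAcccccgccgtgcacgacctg
Of the 21 clock genes with a promoter in the table, 5 held the E-box, against 11.4% of 11803 genes tested, 2 the ROR element (2.26%) and 1 the D-box (0.678%). The 3 motifs do not overlap with each other, and a match is a stretch of letters and not a measured site. Of the 5 genes with the E-box, Tef and Bhlhe41 were lower at ZT20 at an unadjusted p under 0.05, and Per1, Cry1 and Ciart did not reach that threshold.

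Genes of the unfolded protein response were mostly higher at ZT20. This response raises chaperones and degradation factors when unfolded protein builds up in the ER. Of 24 genes tested, 18 were higher at ZT20, 9 of them at an unadjusted p under 0.05 (11.9% of all genes), and 1 was higher at ZT8 at that threshold. The median log2 fold change was 0.26 (0.01 over all genes), 0.31 without ZT8 replicate 1, and between 0.17 and 0.31 under all alternatives. Hspa5, which encodes the main ER chaperone BiP, had 338, 269 and 266 CPM at ZT8 and 433, 418 and 361 CPM at ZT20 (0.47 ± 0.13). Chac1, an enzyme that degrades glutathione and a target of ATF4, had 18.9, 8.36 and 13.9 CPM against 28.3, 29.6 and 21.5 CPM (0.95 ± 0.23). Both had groups that did not overlap, as had Sdf2l1, whereas Hsp90b1, the ER member of the Hsp90 family and the most abundant of the list, differed by -0.24 ± 0.12 with overlap. The exception was Atf4, a transcription factor of this response, with 278, 349 and 327 CPM at ZT8 and 191, 225 and 255 CPM at ZT20 (-0.51 ± 0.16). Xbp1 (0.56 ± 0.17) and Ddit3 (0.52 ± 0.18), which encode other transcription factors of the response, were higher at ZT20, Ddit3 with overlap. Atf4, Xbp1, Ddit3 and Calr were chosen after their values were seen.

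The ER stress response element, CCAAT and CCACG with 9 bases between them (capitals), searched on either strand, is bound by ATF6 in such promoters, and is shown for Hspa5 and for the ER chaperone Calr (186, 106 and 133 CPM at ZT8, 262, 259 and 202 CPM at ZT20, 0.77 ± 0.19).
Hspa5, chr2:34772005-34772063, plus strand: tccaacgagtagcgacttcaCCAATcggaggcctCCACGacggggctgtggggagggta
Calr, element on the opposite strand, chr8:84847055-84847113, minus strand: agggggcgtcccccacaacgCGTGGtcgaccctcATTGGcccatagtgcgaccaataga
The element was found in 7 of the 21 genes of the list with a promoter, against 0.169% of 11803 genes tested. Of those 7 genes, Hspa5 and Calr were higher at ZT20 at an unadjusted p under 0.05, and Pdia6 (0.10 ± 0.10), Dnajc3 (0.12 ± 0.12), Hsp90b1, Canx (-0.09 ± 0.09) and Creld2 (-0.11 ± 0.16) did not reach it. The promoter of Sdf2l1 did not hold these letters.

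Genes of autophagy were mostly higher at ZT20. Of 35 genes, 25 were higher at ZT20, 11 of them at an unadjusted p under 0.05 (11.9% of all genes) against 2 higher at ZT8 (10.4% of all genes), with a median of 0.19 (0.17 without ZT8 replicate 1 and 0.13 without replicate number 2). Sqstm1, which encodes the cargo receptor p62, had 731, 617 and 625 CPM at ZT8 and 1059, 860 and 819 CPM at ZT20 (0.47 ± 0.12), and Map1lc3b, the LC3 protein of the autophagosome, 236, 157 and 162 CPM against 293, 273 and 239 CPM (0.53 ± 0.14). Both had non-overlapping groups, the second by a narrow gap. Gabarapl1, of the same family as LC3, differed by 0.46 ± 0.15 with overlap. A list of 38 lysosomal proteins, added after the values had been seen, had 27 higher at ZT20 (13 at the threshold, 4 higher at ZT8) and a median of 0.24. That median was 0.35 without ZT8 replicate 1, 0.12 without ZT8 replicate 2, 0.16 without ZT20 replicate 1, 0.06 without replicate number 2 and 0.13 over members with a mean log2 CPM of at least 3. By contrast, 15 of 18 subunits of the V-ATPase, which acidifies the lysosome, were higher at ZT8 (6 at the threshold, 2 higher at ZT20, median -0.18, -0.27 without ZT8 replicate 1 and -0.10 without ZT8 replicate 2), and its subunits differed in direction, Atp6v1b2 by -0.29 ± 0.08, Atp6v0d1 by 0.44 ± 0.14 and Atp6v0c by 0.35 ± 0.14. The proteasome (46 genes, 8 higher at ZT20 and 12 at ZT8 at the threshold, median -0.05) and ubiquitin-specific proteases (43 genes, 4 and 7, median -0.04) had no common direction. At that threshold ZT20 was higher for 11.9% of all genes and ZT8 for 10.4%. Psmb7 (0.46 ± 0.11) and Psmd14 (0.66 ± 0.18) were higher at ZT20, whereas Psmc5 (-0.39 ± 0.14), Psmd2 (-0.29 ± 0.08), Usp7 (-0.37 ± 0.10), Usp12 (-0.37 ± 0.11), Usp5 (-0.22 ± 0.10) and Usp20 (-0.23 ± 0.10) were higher at ZT8.

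Lysosomal promoters were searched for the E-box in the same way, because the site of TFEB, the regulator of lysosomal genes, contains it. It was found in 10 of 29 lysosomal genes with a promoter, against 11.4% of genes tested. Shown are Ctsd, the protease cathepsin D (862, 668 and 749 CPM at ZT8, 952, 957 and 886 CPM at ZT20, 0.29 ± 0.09), and Cln3, a lysosomal membrane protein (5.65, 2.7 and 4.42 CPM against 7.39, 9.20 and 6.82 CPM, 0.89 ± 0.26).
Ctsd, chr7:142387900-142388077, minus strand: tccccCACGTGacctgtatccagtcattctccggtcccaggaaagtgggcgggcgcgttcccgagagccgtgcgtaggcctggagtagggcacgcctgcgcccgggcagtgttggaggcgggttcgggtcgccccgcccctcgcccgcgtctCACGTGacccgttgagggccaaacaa
Cln3, chr7:126583332-126583405, minus strand: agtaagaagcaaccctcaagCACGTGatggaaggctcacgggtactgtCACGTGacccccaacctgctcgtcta
Of these 10 genes, 6 (Arsa, Cln3, Ctsa, Ctsd, Ctsf and Ctsl) were higher at ZT20 at an unadjusted p under 0.05 and 1 (Mcoln1) was higher at ZT8. In the whole list, 13 of 38 were higher at ZT20 at that threshold, against 11.9% of all genes. A link between the E-box and these differences was not tested. Lamp1, with 4 E-boxes, differed by 0.01 ± 0.08.

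Heat-shock and temperature-responsive genes showed no common direction. Of 16 genes, 3 were higher at ZT20 and 3 at ZT8 at an unadjusted p under 0.05 (11.9% and 10.4% of all genes). The median was -0.08. Cirbp, which encodes a cold-inducible RNA-binding protein, had 92.6, 122 and 103 CPM at ZT8 and 69.3, 65.3 and 91.8 CPM at ZT20 (-0.49 ± 0.17). Hspa8, the constitutive Hsp70, had 4167, 3575 and 3489 CPM against 5012, 4567 and 4280 CPM (0.30 ± 0.11). The groups of each did not overlap, whereas those of Hsp90ab1 did (-0.14 ± 0.08).

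Respiratory subunits encoded in the nucleus were mostly higher at ZT8 by their medians. Of 38 complex I subunits and assembly genes, 22 were higher at ZT8 at an unadjusted p under 0.05 (10.4% of all genes) and 3 at ZT20, with a median of -0.36, and of 44 genes of complexes II to V, 16 and 8, with a median of -0.29. Over all genes, 11.9% were higher at ZT20 at that threshold. Other counts for complexes II to V did not lean to ZT8. The groups did not overlap for 4 genes in each direction (10.5% of all genes with ZT20 higher and 10.4% with ZT8 higher). DESeq2 called 6 as higher at ZT20 and 3 as higher at ZT8 (4.17% and 2.98% of all genes). For complex I, the groups did not overlap for 1 gene with ZT20 higher and 8 with ZT8 higher. DESeq2 called 2 complex I genes as higher at ZT20 and 5 as higher at ZT8. The median of complexes II to V was -0.18 when either ZT8 replicate 2 or ZT20 replicate 1 was left out and -0.12 when the libraries numbered 2 were, and that of complex I was then -0.22. Ndufa5 had 228, 500 and 384 CPM at ZT8 and 140, 172 and 236 CPM at ZT20 (-1.02 ± 0.28), and Cox4i1, a subunit of cytochrome c oxidase, 1646, 2600 and 2335 CPM against 1239, 1365 and 1764 CPM (-0.59 ± 0.20). In both, ZT8 replicate 1 overlapped with the highest ZT20 library, and the medians of complex I and of complexes II to V without it were -0.48 and -0.34. Ndufa4 (-0.58 ± 0.21) and Ndufb8 (-0.34 ± 0.16) had the same pattern. Some subunits went the other way. Atp5b, the catalytic subunit of ATP synthase, had 1226, 613 and 733 CPM at ZT8 and 1617, 1534 and 1265 CPM at ZT20 (0.78 ± 0.19), and Atp5c1, its central stalk, differed by 0.47 ± 0.11.

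Of 75 mitochondrial ribosomal protein genes, 23 were higher at ZT8 and 8 at ZT20 at the threshold (10.4% and 11.9% of all genes). Their median was -0.21 (-0.27 without ZT8 replicate 1 and -0.13 without ZT8 replicate 2). Mrps9 (-0.61 ± 0.17), Mrpl12 (-0.45 ± 0.16) and Mrps12 (-0.52 ± 0.22) were higher at ZT8 and Mrps22 (1.18 ± 0.32) at ZT20. Transcripts of the mitochondrial genome were mostly higher at ZT20, with 12 of 13 higher at ZT20 (50.7% of all genes). At the threshold 6 were higher at ZT20 (11.9% of all genes) and 0 at ZT8. Their median was 0.46 (0.69 without ZT8 replicate 1, 0.17 without ZT8 replicate 2 and 0.25 without ZT20 replicate 3). ND2 had 153, 48.9 and 89.5 CPM at ZT8 and 207, 194 and 209 CPM at ZT20 (1.07 ± 0.28), and ND4 230, 85.1 and 165 CPM against 318, 279 and 308 CPM (0.92 ± 0.25). ZT8 replicate 2 was the lowest library for both, and COX1 (0.53 ± 0.22) and COX2 (0.22 ± 0.21) differed less. Mitochondrial ribosomes do not carry the tag, and the 13 transcripts were depleted in the other 12 immunoprecipitates against the pooled input, by a median of -4.29 on the log2 scale. The part of carried-over RNA in their difference was not tested.

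Glycolysis was examined after its values had been seen. All 16 genes tested had a log2 fold change above 0 (50.7% of all genes), 10 of them at an unadjusted p under 0.05 (11.9% of all genes). The median was 0.37 (0.49 without ZT8 replicate 1). Gapdh had 2324, 971 and 1409 CPM at ZT8 and 3268, 2979 and 2448 CPM at ZT20 (0.89 ± 0.22). Aldoa, which encodes an aldolase, had 2292, 1239 and 1608 CPM against 2969, 2762 and 2348 CPM (0.65 ± 0.16). Pkm, a pyruvate kinase, had 3672, 2645 and 3107 CPM against 4374, 4203 and 3907 CPM (0.41 ± 0.10). In each the ZT20 libraries lay above the ZT8 libraries, but ZT8 replicate 1 came close to ZT20 replicate 3. Ldha (0.00 ± 0.09) and Pgk1 (0.04 ± 0.07) did not differ beyond their error. Near-identical copies can take reads from glycolytic genes, as Pgam1-ps2 did from Pgam1 (above). The summed CPM of these 2 copies had a log2 ratio of 0.455 for ZT20 over ZT8. The part of split reads in the differences of this list was not tested. The tricarboxylic acid cycle, likewise examined afterwards, had 11 of 17 genes higher at ZT20. At the threshold 7 were higher at ZT20 (11.9% of all genes) and 2 at ZT8 (10.4% of all genes). The median was 0.15 (0.22 without ZT8 replicate 1 and 0.23 without ZT20 replicate 3).

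**Figure D3:**
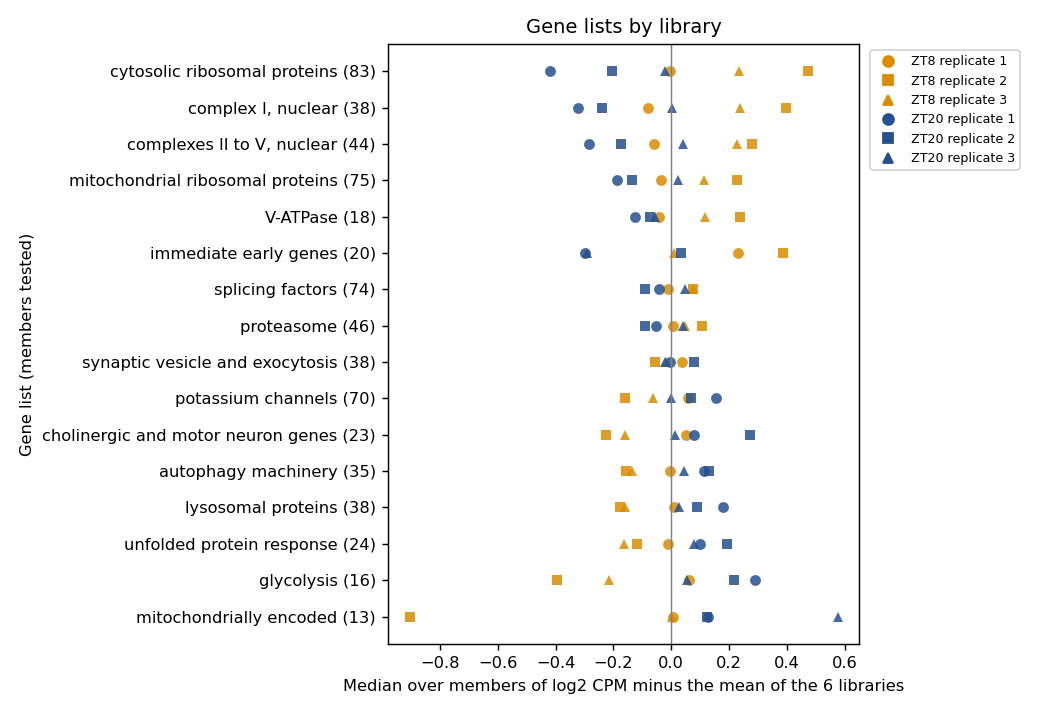
For 16 gene lists (members tested in brackets), the median over members of log2 CPM after subtracting each gene's mean over the 6 libraries, 1 point per library. ZT8 replicate 2 (orange square) lies at or near an end of most lists, whereas ZT8 replicate 1 (orange circle) lies near 0 in most, next to 1 or more ZT20 libraries (blue), as for cytosolic ribosomal proteins, where it is at -0.01 against 0.47 and 0.24.

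Cytosolic ribosomal protein genes were mostly higher at ZT8. Of 83 genes, 68 were higher at ZT8, 48 of them at an unadjusted p under 0.05 (10.4% of all genes) against 1 higher at ZT20, and in 28 all 3 ZT8 libraries lay above all 3 ZT20 libraries (10.4% of all genes). The median was -0.48 (-0.56 without ZT8 replicate 1), and the median log2 CPM deviations of the libraries were -0.01, 0.47 and 0.24 at ZT8 and -0.42, -0.20 and -0.02 at ZT20, so ZT8 replicate 1 and ZT20 replicate 3 nearly met. The 1 gene higher at ZT20, Rps12l1, was at 0 CPM in all ZT8 libraries and in ZT20 replicate 3, too low for a fold. Rplp2, of the ribosomal stalk, had 272, 490 and 389 CPM at ZT8 and 153, 183 and 225 CPM at ZT20 (-1.03 ± 0.28). Rps13 had 159, 276 and 201 CPM against 102, 121 and 132 CPM (-0.84 ± 0.22). The 2 most abundant members differed less, Rpsa by -0.41 ± 0.14 and Rpl19 by -0.17 ± 0.12, and their groups too did not overlap. Without ZT8 replicate 1, edgeR called 38 of the 83 as higher at ZT8 (5.7% of all genes), and DESeq2 called 14 with it (2.98%).

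Translation factors had no common direction, with a median of 0.06. At an unadjusted p under 0.05, 11 of 48 were higher at ZT20 and 11 at ZT8 (11.9% and 10.4% of all genes). The paralogs of the helicase eIF4A differed in opposite directions. Eif4a1 had 89.2, 60.1 and 65.7 CPM at ZT8 and 130, 107 and 98 CPM at ZT20 (0.64 ± 0.16). Eif4a2 had 943, 1479 and 1088 CPM against 770, 752 and 866 CPM (-0.56 ± 0.13). The groups of neither overlapped. Eef1a2, the elongation factor of neurons and muscle, differed by 0.11 ± 0.12.

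**Figure D4:**
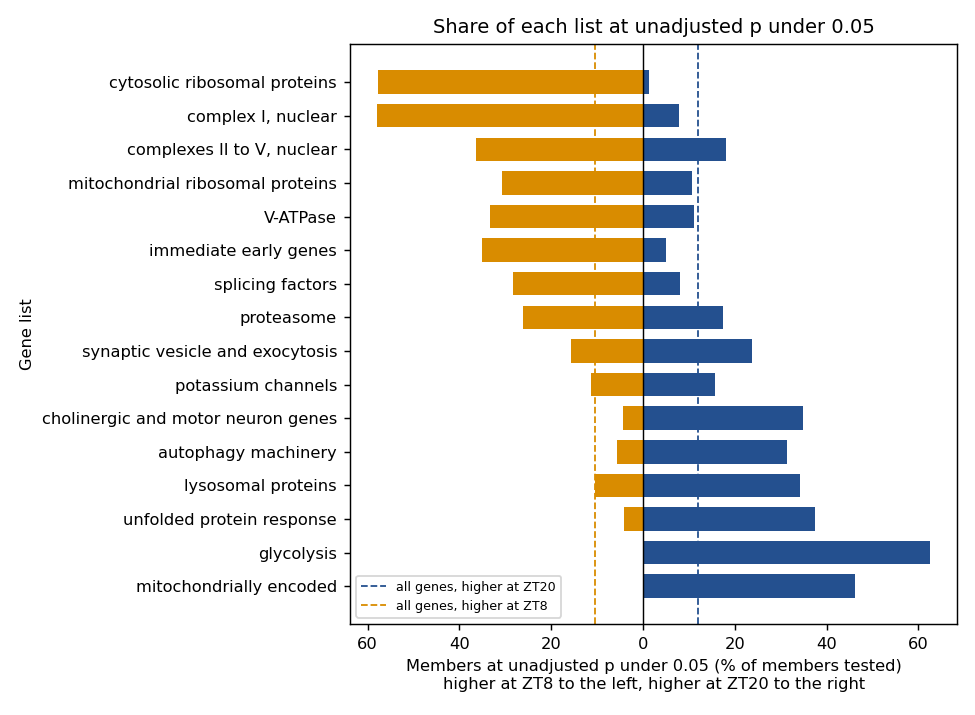
Share of the tested members of 16 gene lists at an unadjusted p under 0.05 in edgeR (%), higher at ZT8 to the left and higher at ZT20 to the right, with dashed lines at the share over all genes (10.4% and 11.9%). Cytosolic ribosomal proteins and complex I extend farthest to the left and glycolysis and mitochondrially encoded genes farthest to the right.

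Splicing factors leaned to ZT8. Of 74 genes, 44 were higher at ZT8, 21 of them at an unadjusted p under 0.05 (10.4% of all genes) against 6 higher at ZT20 (11.9% of all genes), and the median was -0.09. Hnrnpa0 had 224, 260 and 259 CPM at ZT8 and 164, 186 and 198 CPM at ZT20 (-0.44 ± 0.12), and Prpf19, a subunit of the spliceosome with ubiquitin ligase activity, 320, 203 and 214 CPM against 421, 385 and 327 CPM (0.62 ± 0.16). Hnrnpa2b1 (-0.35 ± 0.13) was higher at ZT8 with overlap of the groups and Sf3b2 (0.04 ± 0.09) did not differ beyond its error. Of 14 RNA-binding proteins linked to ALS, 3 were higher at ZT8 at the threshold (10.4% of all genes), Taf15 and Hnrnpa2b1 among them. At ZT20, 0 were higher at the threshold (11.9% of all genes). The groups did not overlap for 2 of the 14 in each direction (10.5% of all genes with ZT20 higher and 10.4% with ZT8 higher), and the median was 0.04. Of 23 other ALS-linked genes, 7 were higher at ZT20 and 1 at ZT8 at the threshold (11.9% and 10.4% of all genes). Their groups did not overlap for 5 genes with ZT20 higher and 3 with ZT8 higher (10.5% and 10.4% of all genes). The axonal motor gene Kif5a differed by 0.36 ± 0.11, with non-overlapping groups, whereas Stmn2 (-0.16 ± 0.09) and Tuba4a (-0.03 ± 0.08) overlapped.

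Cytoskeletal genes leaned to ZT20, with a median of 0.13. At an unadjusted p under 0.05, 11 of 28 were higher at ZT20 and 4 at ZT8 (11.9% and 10.4% of all genes). Nefl, the light neurofilament chain, had 11670, 10040 and 9425 CPM at ZT8 and 12840, 13630 and 11930 CPM at ZT20 (0.30 ± 0.09), and Nefm, the middle chain, differed by 0.32 ± 0.11. Map6, which stabilises microtubules, differed by 0.55 ± 0.16. Stmn3, which destabilises them, had 4310, 7003 and 6124 CPM against 3076, 3361 and 4210 CPM (-0.71 ± 0.21). The groups of these 4 genes did not overlap. The motors of axonal transport had 7 of 34 higher at ZT20 and 7 at ZT8, with a median of 0.00 and with Klc1 (-0.33 ± 0.10), Dynll2 (-0.39 ± 0.11) and Dync1li2 (-0.50 ± 0.13) higher at ZT8.

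Potassium channels were more often higher at ZT20 (51 of 70 genes, median 0.20, 0.31 without ZT8 replicate 1 and 0.13 without either of the other ZT8 libraries), but at an unadjusted p under 0.05 the counts were 11 and 8, near the share over all genes. Kcnc4, a voltage-gated channel, had 38.5, 20.6 and 27.8 CPM at ZT8 and 82.9, 55.4 and 55.8 CPM at ZT20 (1.15 ± 0.25). Kcnip1, an auxiliary subunit of A-type channels, differed by 0.78 ± 0.18. Kcna2, an axonal channel, had 1081, 1496 and 1305 CPM against 920, 954 and 1045 CPM (-0.41 ± 0.12), and its auxiliary subunit gene Kcnab2 differed by 0.41 ± 0.13. Sodium and calcium channels had 8 higher at ZT20 and 4 at ZT8 of 37 at the threshold (11.9% and 10.4% of all genes). Their median of 0.14 was unsteady, at 0.33 without ZT8 replicate 1, 0.06 without ZT20 replicate 3, 0.06 without replicate number 2 and 0.02 without replicate number 3. Scn8a, the main sodium channel of the axon initial segment, differed by -0.27 ± 0.07 and Cacng2, an AMPA receptor auxiliary subunit, by 0.85 ± 0.23.

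Receptors and synaptic genes had medians near 0. Over all genes, 11.9% were higher at ZT20 and 10.4% at ZT8 at an unadjusted p under 0.05, beside which the counts below stand. For glutamate receptors (26 genes) 4 were higher at ZT20 and 1 at ZT8 at the threshold, with Grin1 of the NMDA receptor at 0.54 ± 0.16 and Grina at 0.44 ± 0.12. For GABA and glycine receptors (21 genes) the counts were 3 and 2, with Gabra2 at -0.46 ± 0.15, Slc12a5 at 0.17 ± 0.14 and Glrb at -0.16 ± 0.11. For synaptic vesicle genes (38) they were 9 and 6, with Syn1 at 0.41 ± 0.12, Syp at -0.18 ± 0.09 and Vamp1 at 0.07 ± 0.08 beside Unc13b. Antioxidant enzymes (22 genes, 3 and 3) held Gclm at 0.61 ± 0.20, Prdx3 at 0.47 ± 0.15, Gpx4 at -0.43 ± 0.18 and the ALS gene Sod1 at -0.31 ± 0.15. Cholesterol genes (26, 3 and 4) held Tm7sf2 at 1.21 ± 0.33, Stard4 at -0.65 ± 0.17 and Hmgcs1 at -0.29 ± 0.11. In each of these 5 lists single genes differed in both directions.

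Immediate early genes, which neuronal activity induces within minutes, leaned to ZT8. Of 20 genes, 16 were higher at ZT8, 7 of them at an unadjusted p under 0.05 (10.4% of all genes) against 1 higher at ZT20 (11.9% of all genes). Their median of -0.23 was -0.32 without ZT8 replicate 1, -0.11 without ZT8 replicate 2 and -0.42 without ZT20 replicate 2. Egr1 had 16.9, 19.1 and 16.5 CPM at ZT8 and 10.1, 8.89 and 10.1 CPM at ZT20 (-0.86 ± 0.19). Btg2 had 10.7, 12.5 and 8.29 CPM against 5.66, 4.00 and 4.52 CPM (-1.17 ± 0.25), and Jund 247, 261 and 283 CPM against 188, 218 and 193 CPM (-0.40 ± 0.15). In these 3 genes ZT8 replicate 1 lay with the other ZT8 libraries. Jun differed by 0.26 ± 0.15 with overlap. Fos, chosen after its values were seen, had 31.5, 34.4 and 13.5 CPM against 18.7, 30.6 and 18.0 CPM, and Arc, the 1 member higher at ZT20 at the threshold, differed by 0.56 ± 0.26.

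Cholinergic and motor neuron genes were mostly higher at ZT20 (20 of 23, against 50.7% of all genes). At an unadjusted p under 0.05, 8 were higher at ZT20 and 1 at ZT8 (11.9% and 10.4% of all genes). Their median was 0.21 (0.34 without ZT8 replicate 1 and 0.14 without ZT20 replicate 2). Chat, the enzyme that makes acetylcholine, had 23.3, 8.31 and 19.0 CPM at ZT8 and 54.4, 51.7 and 20.3 CPM at ZT20 (1.32 ± 0.44). Slc18a3, its vesicular transporter, had 537, 244 and 320 CPM against 685, 643 and 455 CPM (0.70 ± 0.23), and Slc5a7, the choline transporter, 228, 180 and 180 CPM against 305, 278 and 229 CPM (0.46 ± 0.17). Of these 3 genes only Slc5a7 had groups apart, and narrowly. Ache, which breaks acetylcholine down, differed by 0.43 ± 0.20, Esrrg, a marker of gamma motor neurons, by 0.88 ± 0.25, Mmp9, a marker of fast alpha motor neurons, by 0.61 ± 0.18 and Prph, a neurofilament-like protein, by -0.11 ± 0.11. In bulk precipitates a different number of tagged cells and a different amount of RNA per cell cannot be told apart.

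Markers of other cells were measured beside these. The sums of 7 cholinergic markers were 4230 to 4685 CPM at ZT8 and 4628 to 4809 CPM at ZT20. Prph made up most of each sum, with 3024, 3338 and 3202 CPM at ZT8 and 2769, 2867 and 3249 CPM at ZT20. Of the 7 markers, 6 were higher at ZT20, 4 of them at an unadjusted p under 0.05, so the sums do not stand for most markers. The sums of 7 oligodendrocyte markers were 1731 to 1992 and 1758 to 1957 CPM (26410 CPM in the input). Those of 6 astrocyte markers were 131 to 165 and 149 to 197 CPM (3567 CPM in the input). Both glial sums thus overlapped between the times and lay far below the input. The 4 inhibitory neuron markers summed to 246 to 299 CPM at ZT8 and 301 to 341 CPM at ZT20 and the 4 Schwann cell markers to 216 to 243 and 268 to 283 CPM, without overlap. Excitatory neuron (3 markers), microglia (6), endothelial (4), ependymal (4) and erythrocyte (4) markers had sums that overlapped, at 54.5 to 72.9 and 52.8 to 55.0 CPM, 9.74 to 14.6 and 9.28 to 14.1 CPM, 7.56 to 9.01 and 6.76 to 12.9 CPM, 40.2 to 59.8 and 48.6 to 59.4 CPM, and 233 to 428 and 287 to 334 CPM. No marker was at 0 in all 6 libraries. The part of these cells in the differences above was not tested.

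Transcript length moved with the contrast. Among 1069 genes with a transcript shorter than 1 kb, the median log2 fold change was -0.31, with 21.2% higher at ZT8 and 4.49% at ZT20 at an unadjusted p under 0.05, whereas in each longer class it lay between -0.02 and 0.05. Cytosolic ribosomal protein genes had a median length of 1094 bases and complex I genes of 1026 bases, against 3312 bases over all genes. After correction of each library for length and GC content, the effect on the medians differed between lists. They were nearer to 0 for several, at -0.30 for cytosolic ribosomal proteins, -0.25 for complex I and -0.10 for complexes II to V. Glycolysis was at 0.28 and the unfolded protein response at 0.18, against -0.03 over all genes. The medians were farther from 0 for immediate early genes (-0.30), clock outputs (-0.37 against -0.29 before) and splicing factors (-0.12). They changed sign for other ALS-linked genes (-0.04 against 0.06) and translation factors (-0.00 against 0.06). No corrected median is given for mitochondrially encoded genes. ND2 and ND4 had no length, and the lengths matched to COX1 and COX2 (2867 and 4453 bases) exceeded the genes themselves. Across genes, Spearman's rho of the log2 fold change was 0.08 with length, 0.07 with GC content and -0.18 with the log2 ratio of the other 12 immunoprecipitates to the input (genes are not independent and no test was made). The part of length in the differences was not tested.

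The other pairs of times 12 h apart, ZT16 against ZT4 and ZT0 against ZT12, use none of the 6 libraries and were set beside ZT20 against ZT8. edgeR called 10 genes in ZT16 against ZT4 and 5 in ZT0 against ZT12. Of the 3474 genes at an unadjusted p under 0.05, 90.5% had the same sign in ZT16 minus ZT4 and 83.9% in ZT0 minus ZT12. Over all genes the log2 fold change was above 0 for 50.2% in ZT16 minus ZT4 and for 50.6% in ZT0 minus ZT12. That is not the share of all genes with the same sign as in ZT20 minus ZT8, which was not counted. Across all 15572 genes Pearson's r of the log2 fold changes with those of ZT20 minus ZT8 was 0.27 and 0.17, and across the 9183 with a mean log2 CPM of at least 3 it was 0.77 and 0.58, as a description, since genes are not independent. All 20 leading genes had the same sign in both. The medians for cytosolic ribosomal proteins were -0.30 and -0.23, for complex I -0.42 and -0.23, for mitochondrially encoded genes 0.60 and 0.37, for glycolysis 0.33 and 0.07 and for the unfolded protein response 0.14 and 0.17.

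Some differences were uneven between the pairs. Gal differed by -0.11 in ZT16 minus ZT4 and by -1.04 in ZT0 minus ZT12 on the log2 scale. Clock genes with small differences here had larger ones there: Per2 differed by 1.34 in ZT16 minus ZT4, and Per3 and Dbp by -1.12 and -1.12 in ZT0 minus ZT12. Immediate early genes had a median of 0.03 in ZT16 minus ZT4 and of -0.20 in ZT0 minus ZT12. Over the 6 time points, the mean of all 10 leading genes higher at ZT20 was lowest at ZT8, but it was highest at ZT20 only for Rheb. Of the 10 higher at ZT8, 9 had their highest mean at ZT8 and 3 (Cdc25a, Cbx3-ps6 and Bbs5) their lowest at ZT20. ZT8 was thus the extreme time more often than ZT20, which in part follows from the choice of these genes.

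**Figure D5:**
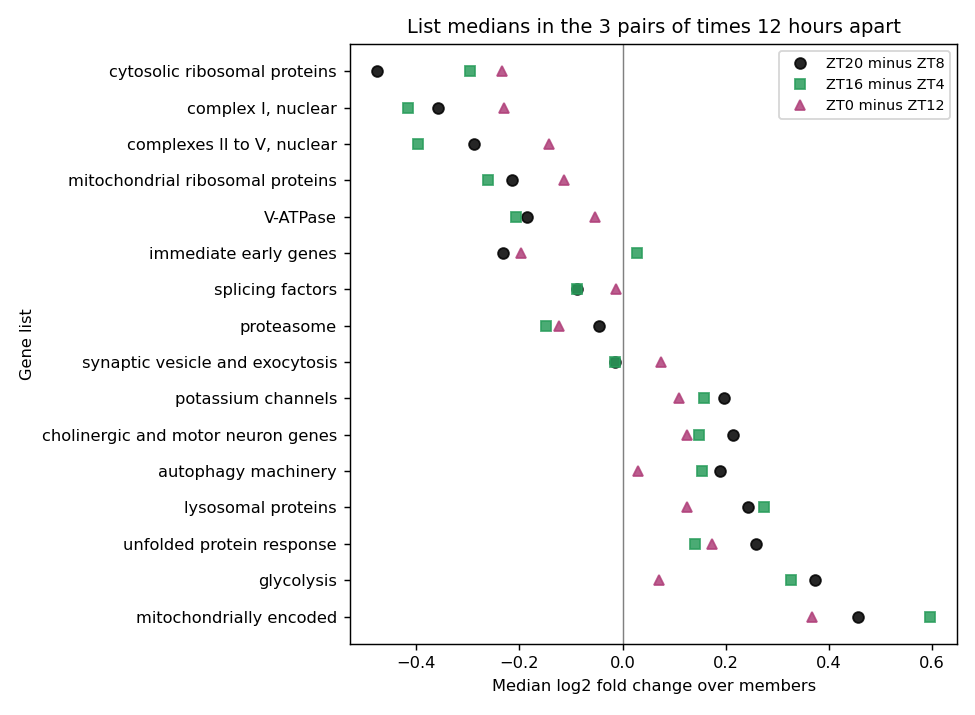
Median log2 fold change over the members of 16 gene lists in ZT20 minus ZT8 (circles), ZT16 minus ZT4 (squares) and ZT0 minus ZT12 (triangles), pairs that share no library. The medians have the same sign in all 3 pairs for most lists, with immediate early genes on the other side of 0 in ZT16 minus ZT4 and synaptic vesicle genes in ZT0 minus ZT12.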

How the data were processed

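The authors aligned poly(A) libraries to mm10 (STAR 2.7.5), and RSEM gave the deposited expected counts per gene. These are not normalized, and RSEM divides reads that fit several genes by a model. They were rounded to whole numbers, and 15572 of 50559 genes passed filterByExpr over the 18 immunoprecipitates. edgeR 4.0.16 (R 4.3.3) fitted the 6 time points with TMM scaling and the quasi-likelihood F-test, with Benjamini-Hochberg adjustment over all genes (threshold 0.05) and no block, and standard errors came from the F statistic. The common coefficient of variation was 19.2%. CPM used scaled library sizes, and log2 CPM a prior count of 2. DESeq2 1.42.0 and limma 3.58.1 were alternatives. The code was tested on simulated data.

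Genes were named as the 10 with the lowest p and the 5 with the largest fold per direction (mean log2 CPM of at least 3), all clock genes, and in each other list the 2 members with the lowest p and the 2 most abundant. Other genes named were chosen after their values were seen. The members and lists were chosen with earlier results of these data known. List members not tested failed the filter. Some genes that the rule names are not reported here. A list of ER translocation and N-glycosylation genes, added later, had 14 of 34 genes higher at ZT20 and a median of -0.15. Coordinates and promoters were matched by symbol to RefSeq (GRCm38.p6), and 11803 of 15572 genes had a promoter. Lengths were matched to GENCODE M21 by symbol or synonym (95.9% of genes). Replicates were separate animals.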

Additional observations from a re-analysis of the deposited data

How the results depend on the processing

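The number of genes called by edgeR (0) was also 0 with scaling by upper quartiles, by total counts or by the size factors of DESeq2. It was 154 with a filter of at least 10 counts, 1641 with at least 1 count, 1114 with DESeq2 (no adjusted p for 4530 genes), 109 with limma-voom, 2 with the 6 libraries alone, 783 with length and GC correction and 7 with the replicate block. Leaving out 1 library or replicate number gave 0 to 2320 calls (2320 without ZT8 replicate 1, 578 without ZT16 replicate 3, 444 without replicate number 1, 256 without ZT20 replicate 3, at most 2 otherwise), and 1204 to 4630 genes at an unadjusted p under 0.05, against 3474 (1899 without ZT8 replicate 2, 1204 without replicate number 2). With length and GC correction 45.1% of the calls were higher at ZT20, against 58.3% in DESeq2. No named gene changed sign in any of 31 alternatives where either value reached an unadjusted p under 0.05. Among the lists, medians changed sign in at least 1 alternative only where they lay within 0.14 of 0. Same-numbered libraries at ZT8 and ZT20 deviated with correlations of 0.37, -0.20 and 0.22. The best-matching ZT20 library had the same number for ZT8 replicates 1 and 3, and number 3 for ZT8 replicate 2. Whether equal numbers share more than the number was not tested. The cause of these dependences was not tested. ZT20 replicate 1 was the shallowest library, which limits the precision of low genes such as Unc13b.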
